A study of Homo sapiens with 8 samples.

Results

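Chromatin accessibility was examined around 10 genes of the transforming growth factor beta (TGF-beta) pathway in LX-2, a human cell line derived from hepatic stellate cells and immortalised. The genes were the ligands TGFB1, TGFB2 and TGFB3, the receptors TGFBR1, TGFBR2 and TGFBR3, the latent TGF-beta binding proteins LTBP1 and LTBP2, and the signal transducers SMAD3 and SMAD7. They were chosen by name as pathway components, and no measured value entered the rule, although earlier results of these data were known at the time. They made up 10 of the 20136 protein-coding genes in the annotation. The locus of each gene was its body with 50 kb added on each side, and every peak in the locus was taken from every list.

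The assay was ATAC-seq, in which the Tn5 transposase cuts open chromatin and regions with many cuts are called as peaks. Cells without any other treatment were grown on soft hydrogels of about 2 kPa or on stiff hydrogels of about 40 kPa, stiffnesses in the range of healthy and cirrhotic liver. Collection was after 2 days (D2) or 4 days (D4). The soft and the stiff matrix thus each had a D2 and a D4 group, with 2 libraries a group and 8 peak lists in all. All 4 groups were 1 cell line in culture, with no other liver cell type present by design. The methods of the study describe its sequencing replicates as biological, and the labels only number them.

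TGF-beta is the main fibrogenic cytokine of stellate cells. The ligands are secreted in a latent form that some LTBP proteins, such as LTBP1, tether to the extracellular matrix, and once released they bind TGFBR2, which recruits and phosphorylates TGFBR1. The active receptor phosphorylates SMAD3, which enters the nucleus with SMAD4 and binds DNA, while SMAD7 is induced by the same signal and inhibits it. TGFBR3, also called betaglycan, is a co-receptor that presents the ligands, TGFB2 in particular.

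The lists held between 29789 and 72840 peaks, 466883 in all. The D2 soft replicate 1 library stood apart. It had the shortest list, its estimated depth was 0.782 fragments per kb of genome against 2.06 to 3.14 in the other 7 libraries, and the median number of fragments under its summits was 10 against 13 to 22. Main counts of sites and promoters are given with and without it. As a check of the label, promoter peaks of cell-type markers were counted: 8 of 10 stellate and mesenchymal genes, among them ACTA2, COL1A1 and PDGFRB, had one in every library, against 0 of 7 hepatocyte genes and 0 of 3 endothelial genes. The same held for 1 of 4 cholangiocyte genes (KRT7) and for 2 of 5 blood and Kupffer genes (CD14 and CD68). It held for 47.6% of all protein-coding genes. Of the stellate and mesenchymal genes, COL1A2 had a promoter peak in 7 libraries and COL3A1 in 2, both soft. A peak in some libraries only was seen for 4 hepatocyte genes, 1 endothelial gene, 2 cholangiocyte genes and 1 blood and Kupffer gene.

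Peaks were merged over the 8 lists where they overlapped, and a merged region with peaks from at least 2 libraries was called a site. The 10 loci held 143 of the 75501 sites of the genome, and a further 38 regions had a peak in 1 library. Of the 143 sites, 51 had a peak in every library, a share of 35.7% against 32.1% of all sites. Leaving out D2 soft replicate 1, 77 of the 143 sites had a peak in all of the other 7 libraries, 53.8% against 47.1% of all sites. A site within 1 kb of an annotated transcription start of the gene was called its promoter site. There were 25 promoter sites, 15 sites at the start of some other gene in the locus and 103 distal sites. By position, 75 of the sites had their summit in an intron, 34 lay upstream of the gene and 25 downstream of it, and 9 were in exons.

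The loci differed widely in the number of sites. LTBP1 had 26 and SMAD3 had 23, followed by TGFBR3 with 19, SMAD7 with 17, LTBP2 with 14, TGFB2 with 13, TGFB1 with 11, TGFBR1 and TGFBR2 with 9 each and TGFB3 with 2. LTBP1, at 453 kb the longest gene of the set, also had the most sites, whereas SMAD7 had 17 sites around a gene of 31.1 kb. The share of sites open in every library was highest for TGFB1 (7 of 11), TGFBR2 (5 of 9) and SMAD3 (12 of 23). Of the 11 sites in the TGFB1 locus, 5 lay at starts of other genes, and its own promoter site was found in 7 libraries. No TGFB3 site was found in every library.

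**Figure D1:**
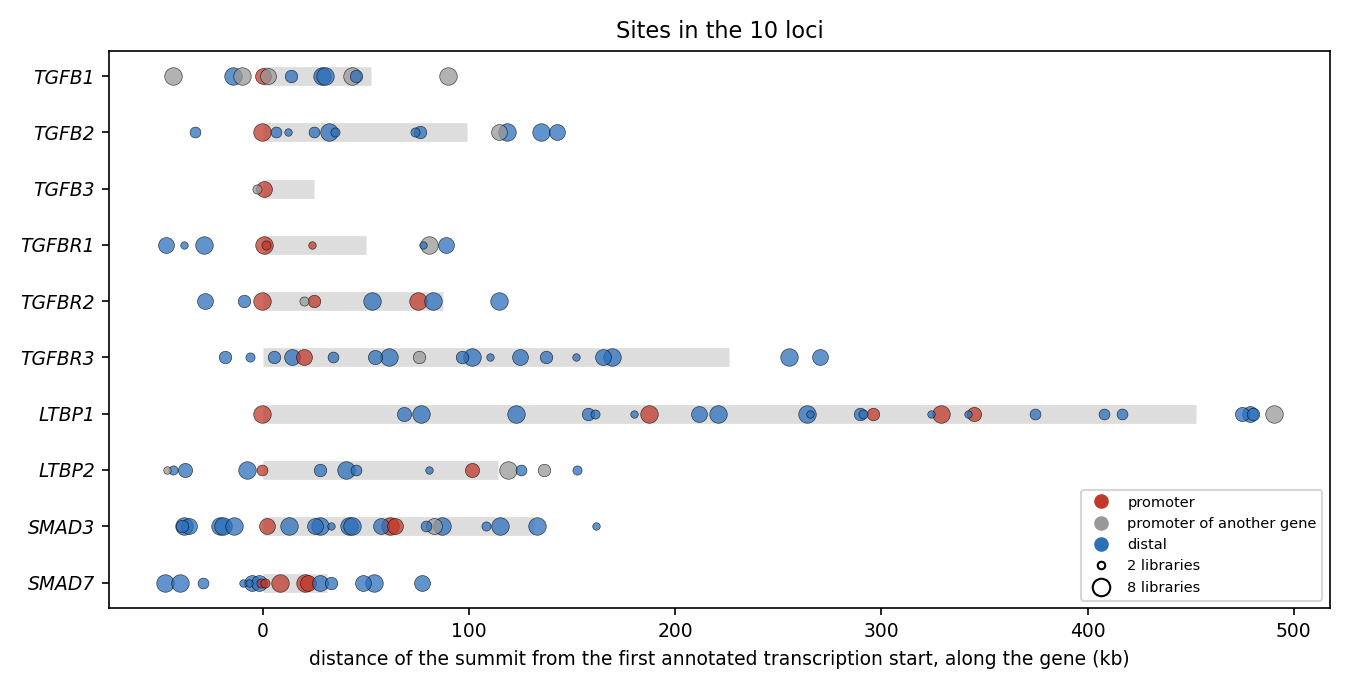
Each point is 1 of the 143 sites, placed by the distance in kb of its summit from the first annotated transcription start along the gene (x axis) in the row of its gene (y axis), with the gene body as a grey bar. Red marks promoter sites, grey the start of some other gene and blue distal sites, and larger points were found in more of the 8 libraries. LTBP1 carries 26 sites along its length and TGFB3 carries 2.

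Columns of the lists were compared as ranks within a list, since fold enrichment (the summit pileup over the local background of the same library) does not share a scale between libraries. Where a library had several peaks in a site, the one of highest fold enrichment was used. At 125 of the 143 sites, and at 50 of the 51 with a peak in every library, that peak covered the summit of the site (the summit of its best-ranked peak) in each library called there. A rank is given as a top percent, so that 0 is the strongest peak of a list and 100 the weakest. The promoters of 6 of the 10 genes (TGFB2, TGFBR1, TGFBR2, LTBP1, SMAD3 and SMAD7) had a peak in every library, against 47.6% of all protein-coding genes. TGFB1, TGFB3 and TGFBR3 had one in 7 libraries, all but D2 soft replicate 1, and LTBP2 in 6, all but D2 soft replicate 1 and D4 soft replicate 2. Without D2 soft replicate 1, 9 of the 10 promoters had a peak in all of the other 7 libraries, against 58.8% of all protein-coding genes. None of the 10 lacked a promoter peak altogether, as 26.7% of genes did. No gene of the set had a promoter peak in all stiff and no soft libraries, a pattern seen in 0.199% of genes. These counts took a peak at any annotated start of a gene. At the promoter site nearest the first start, SMAD3 had a peak in 7 libraries, LTBP2 in 4 and SMAD7 in 3. The summit of that nearest site lay 1931 bp past the first start in SMAD3 and 20174 bp past it in TGFBR3.

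**Figure D2:**
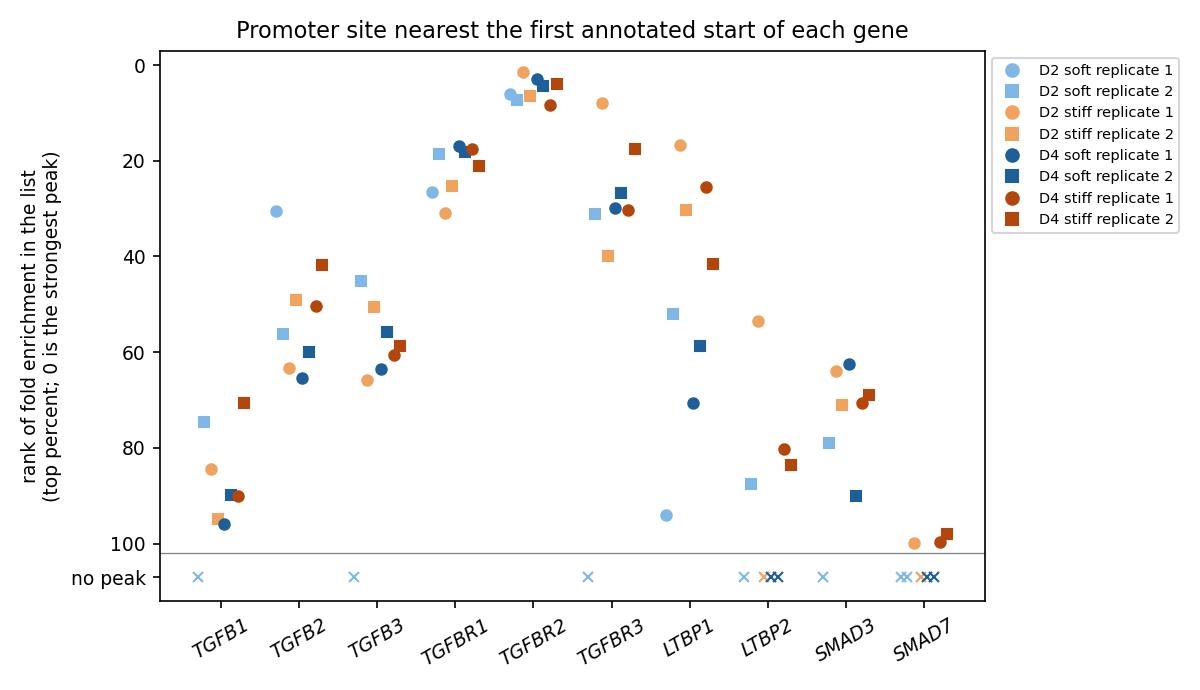
For each gene (x axis) the promoter site nearest the first annotated start is shown by the rank of its fold enrichment in each of the 8 lists (y axis, top percent, with 0 the strongest peak), and crosses mark libraries with no peak there. For SMAD3 and TGFBR3 the summit of this site lies 1931 bp and 20174 bp past that start. Blue is soft, orange is stiff, darker shades are day 4, circles are replicate 1 and squares replicate 2. TGFBR2 lies in the top 1.48% to 8.28% of every list, while the 3 SMAD7 peaks lie between 98.0% and 99.8%.

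The ligand genes had modest promoter peaks. TGFB1, the ligand most studied in fibrosis, had a promoter site (chr19:41858286-41860109, hg19) with its summit 4 bp from the first start in the untranslated part of an exon. Its fold enrichment was 5.63 for D2 soft replicate 2, 4.89 and 4.03 for D2 stiff, 3.66 and 3.88 for D4 soft and 4.35 and 5.93 for D4 stiff, and D2 soft replicate 1 had no peak. D2 stiff replicate 1 and D4 soft replicate 1 each had 2 separate peaks in the site, joined with the rest through a wide D4 stiff replicate 1 peak, and the values given for them are from the peak farther into the gene. The peaks over the summit had 4.89 and 3.62 in these libraries. By fold enrichment the highest values placed the site between 70.6% and 95.9% of the lists, among the weaker peaks in each. The soft and stiff values overlapped. Ranked by p-value, the same peaks ran from 43.4% (D4 stiff replicate 2) to 86.3% (D2 stiff replicate 2). The site also covers a start of TMEM91, and the values cannot be divided between these genes. The best distal TGFB1 site open in every library, at -14118 bp from the first start (chr19:41873604-41874158), ranked higher by fold enrichment, from 26.7% to 64.4%.

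TGFB2, a ligand that depends on the co-receptor for high-affinity binding, had its promoter site (chr1:218518286-218519882) in every library. Fold enrichment was 7.44 and 7.07 for D2 soft, 6.42 and 8.03 for D2 stiff, 5.93 and 6.05 for D4 soft and 7.65 and 8.61 for D4 stiff. On day 4 both stiff values lay above both soft values, whereas on day 2 the groups overlapped. For tests, each site open in every library was given a rank score, the normal score of its rank among all 24246 such sites. The interaction of stiffness and day at this site, the stiff minus soft difference on day 4 less that on day 2, was 1.13 ± 0.713 (SE) in rank score (unadjusted p = 0.126 and adjusted p = 0.932, limma with Benjamini-Hochberg adjustment over all these sites). The site also covers the start of the antisense gene TGFB2-AS1. Its summit lies at -197 bp from the TGFB2 start, and the 151 bases around it are shown here because they are the only promoter sequence of a ligand with a peak in all 8 libraries. Capitals mark matches to GTCTG, the half-site that SMAD proteins bind, and to GGAATG, the core bound by TEAD factors, on either strand.
TGFB2 promoter, chr1:218518406-218518556, plus strand: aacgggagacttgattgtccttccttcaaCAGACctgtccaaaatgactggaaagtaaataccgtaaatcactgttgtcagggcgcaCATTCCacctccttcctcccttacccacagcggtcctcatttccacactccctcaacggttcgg

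An intronic site 24908 bp into TGFB2 (chr1:218543438-218543748) was the only one of the 143 with a peak in all 4 stiff and in no soft library, a pattern shared by 0.850% of all sites. Its fold enrichment was 5.20 and 6.73 for D2 stiff and 5.09 and 4.23 for D4 stiff, and between 8 and 12 fragments lay under the summit. It was a weak peak wherever it was called, at 64.6% to 90.4% of the lists, and it was no longer called in any stiff list once all lists were cut to 29789 peaks of best p-value. A stronger intronic site 32081 bp into the gene (chr1:218550275-218551017) was the best distal TGFB2 site open in every library. There fold enrichment was 9.19 and 9.70 for D2 soft, 9.19 and 12.4 for D2 stiff, 9.58 and 9.67 for D4 soft and 7.70 and 8.03 for D4 stiff. Both D4 stiff values were the lowest of the 8 (limma, D4 stiff against soft, -1.09 ± 0.500 in rank score, SE, unadjusted p = 0.0371, adjusted p = 0.921). The 2 sequences are set side by side to show a site called on the stiff matrix alone and one called everywhere. The first holds none of the motifs searched, and capitals in the second mark a SMAD half-site and TGACTCA, the element bound by AP-1 factors.
TGFB2 intron, stiff libraries alone, chr1:218543511-218543661, plus strand: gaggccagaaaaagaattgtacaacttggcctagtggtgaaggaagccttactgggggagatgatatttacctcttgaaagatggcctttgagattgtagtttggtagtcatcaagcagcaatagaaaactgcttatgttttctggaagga
TGFB2 intron, all libraries, chr1:218550684-218550834, plus strand: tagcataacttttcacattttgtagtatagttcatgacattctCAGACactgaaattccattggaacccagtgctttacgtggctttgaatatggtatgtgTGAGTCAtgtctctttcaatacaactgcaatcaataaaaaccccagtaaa

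TGFB3 had the poorest locus of the set. Its promoter site (chr14:76447945-76449005) was found in 7 libraries, with fold enrichment of 8.01 for D2 soft replicate 2, 6.23 and 7.89 for D2 stiff, 6.10 and 6.39 for D4 soft and 6.72 and 6.94 for D4 stiff. The stiff and soft values overlapped, and the ranks were mid-list, from 45.2% to 65.8%. The second site, at a start of the neighbouring gene IFT43, was seen in 3 libraries, 1 soft and both stiff on day 4. No distal site was found within 50 kb of the gene in at least 2 libraries.

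By mean rank over the 8 libraries, TGFBR2 had the 2 strongest promoter sites of the set. This mean includes D2 soft replicate 1, the only list in which the LTBP1 coding exon site described below ranked low. The first TGFBR2 site (chr3:30647677-30648862), with its summit at -74 bp from the first start, had a fold enrichment of 10.4 and 12.9 for D2 soft, 15.6 and 13.8 for D2 stiff, 14.2 and 12.5 for D4 soft and 12.6 and 14.6 for D4 stiff. Its rank never fell below the top 8.28% of a list. An intronic TGFBR2 site 75371 bp into the gene and near an internal start (chr3:30723047-30723744) had the higher fold enrichment in 6 of the 8 libraries. Fold enrichment there was 8.60 and 16.3 for D2 soft, 15.2 and 14.7 for D2 stiff, 17.1 and 13.6 for D4 soft and 15.5 and 15.2 for D4 stiff. Apart from D2 soft replicate 1, where it was at 17.2%, it stood in the top 3.89% of every list. Stiff and soft values overlapped at both sites. Both sequences are shown because they were the most accessible TGFBR2 sites, and capitals mark GGGCGG, the GC box, and the AP-1 element, which occurs 2 times in the intronic window.
TGFBR2 promoter, chr3:30647944-30648094, plus strand: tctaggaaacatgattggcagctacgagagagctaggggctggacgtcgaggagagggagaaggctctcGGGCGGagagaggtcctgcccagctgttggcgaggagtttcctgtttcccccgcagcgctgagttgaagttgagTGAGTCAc
TGFBR2 intron, chr3:30723389-30723539, plus strand: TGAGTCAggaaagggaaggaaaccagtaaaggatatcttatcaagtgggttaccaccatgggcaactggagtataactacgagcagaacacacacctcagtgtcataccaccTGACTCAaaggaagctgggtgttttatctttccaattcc

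The remaining TGFBR2 promoter site lay at a start of a non-coding transcript (chr3:30672296-30672998) and followed no stiffness order. It had peaks in both D2 soft libraries, with fold enrichment of 3.25 and 4.93, in D2 stiff replicate 2 (5.17) and in both D4 stiff libraries (4.39 and 4.88), and in neither D4 soft library. It was thus the only site of the 10 loci called on day 2 alone among soft libraries, a pattern of 0.403% of all sites. It rested on 3 to 8 fragments under the summit.

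TGFBR2 also had the only site called in both D4 soft and in neither D4 stiff library (1.31% of all sites), in an intron at a start of the pseudogene KLHL25P1 (chr3:30668109-30668532). Fold enrichment was 3.15 and 3.06 for D4 soft and 3.90 for D2 soft replicate 2, on 5 or 6 fragments, at the very bottom of these lists (95.2% to 99.7%), and the site was lost when a q-value of at most 0.01 was required. The summit of the D2 soft replicate 2 peak lay outside both D4 soft peaks.

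Distal TGFBR2 sites differed with stiffness in opposite directions in rank, and neither difference passed adjustment. The site 114568 bp from the first start and downstream of the gene (chr3:30762327-30763510) had a fold enrichment of 4.23 and 6.51 for D2 soft, 9.29 and 10.2 for D2 stiff, 7.55 and 8.44 for D4 soft and 11.5 and 10.1 for D4 stiff. Each stiff value was above each soft value of the same day in fold enrichment. The day 4 rank scores overlapped, at 0.445 and -0.224 for stiff and -0.733 and -0.106 for soft libraries. Its rank score was higher on stiff by 0.90 ± 0.343 (SE) over both days (limma, unadjusted p = 0.0138, adjusted p = 0.562). The intronic site 82725 bp into the gene (chr3:30730441-30731114) had lower rank scores on stiff on day 2, although the values overlapped, with fold enrichment of 8.44 and 13.2 in soft and 8.86 and 7.66 in stiff libraries. On day 4 its values were 11.1 and 9.58 in soft and 11.9 and 11.3 in stiff libraries. Its day 4 rank scores overlapped, at 0.502 and 0.306 for soft and 0.584 and 0.187 for stiff libraries. The limma effect was -1.53 ± 0.482 (SE) on day 2 (unadjusted p = 0.00356, adjusted p = 0.492), the lowest adjusted p of the 51 sites on that day, and -0.78 ± 0.341 (SE) over both days (adjusted p = 0.615). The best distal TGFBR2 site open in every library (chr3:30699761-30701452), also intronic, ranked from 6.06% to 35.04%.

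TGFBR1, the kinase that phosphorylates SMAD3, had its main promoter site (chr9:101866473-101867439) 794 bp into the gene. Fold enrichment was 7.74 and 10.8 for D2 soft, 9.18 and 10.5 for D2 stiff, 10.7 and 9.82 for D4 soft and 11.1 and 11.0 for D4 stiff. The ranks, from 16.9% to 30.9%, spanned less than those of any other promoter site open in every library except the TGFBR2 promoter. Among sites open in every library its 4 soft rank scores lay above its 4 stiff rank scores, as they did for 2.12% of those sites, although fold enrichment itself overlapped between the groups. Ranked by p-value among the same sites, the groups overlapped. The soft libraries stood at 20.1%, 9.17%, 6.19% and 11.2%, and the stiff libraries at 28.9%, 13.0%, 3.21% and 6.58%. The other promoter sites of TGFBR1 were faint: one 1550 bp into the gene in 3 libraries (fold enrichment 2.89 to 3.71) and one in the untranslated part of an exon 23796 bp from the start in 2 libraries (3.77 and 4.89). The best distal site open in every library, at -28397 bp from the first start (chr9:101837511-101838444), was stronger than the promoter, at 2.50% to 15.5% of the lists. Capitals in the promoter window mark 3 SMAD half-sites and a GC box.
TGFBR1 promoter, chr9:101867039-101867189, plus strand: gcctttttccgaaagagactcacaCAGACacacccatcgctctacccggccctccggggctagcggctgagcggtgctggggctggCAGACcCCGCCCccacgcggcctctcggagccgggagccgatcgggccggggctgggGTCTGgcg

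TGFBR3 had 19 sites, 17 of them distal. Its promoter site (chr1:92350918-92352043) lay at an internal start 20174 bp into the gene. It was found in 7 libraries with a fold enrichment of 9.32 for D2 soft replicate 2, 12.7 and 8.90 for D2 stiff, 9.07 and 8.82 for D4 soft and 9.55 and 11.6 for D4 stiff. The highest values were in stiff libraries, but D2 stiff replicate 2 lay below D2 soft replicate 2, so the groups overlapped. The strongest peak of the locus was distal, downstream of the gene (chr1:92116175-92116902), with fold enrichment of 11.7 and 13.3 for D2 soft, 13.6 and 13.1 for D2 stiff, 15.6 and 15.3 for D4 soft and 12.3 and 15.7 for D4 stiff. It stood in the top 9.81% of every list. An intronic site (chr1:92202175-92203069) gave the lowest p of the set for the interaction of stiffness and day. Its fold enrichment was 5.01 and 7.01 for D2 soft, 9.31 and 8.72 for D2 stiff, 10.4 and 10.7 for D4 soft and 8.23 and 8.62 for D4 stiff. Stiff was thus above soft on day 2 and below it on day 4 (interaction of -1.84 ± 0.671 in rank score, SE, limma, unadjusted p = 0.0104, adjusted p = 0.920).

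LTBP1 gave the largest stiff against soft difference in rank score among the 51 sites open in every library. Its promoter at the first start, that of the long form of the protein (chr2:33171425-33172743), had a fold enrichment of 3.83 and 7.44 for D2 soft, 11.0 and 9.88 for D2 stiff, 5.61 and 6.15 for D4 soft and 10.1 and 8.62 for D4 stiff. All 4 stiff libraries lay above all 4 soft libraries. The same held for the ranks, at 94.1% and 52.1% for D2 soft, 16.7% and 30.4% for D2 stiff, 70.6% and 58.7% for D4 soft and 25.5% and 41.6% for D4 stiff. On the rank score the difference was 1.24 ± 0.362 (SE) over both days (limma, unadjusted p = 0.00185, adjusted p = 0.410), so it did not pass adjustment over all sites. It was the only one of the 51 sites with all stiff above all soft rank scores, a pattern found at 1.88% of all sites. Without D2 soft replicate 1, in which 5 fragments lay under the summit, the difference was 0.88.

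The second LTBP1 promoter, at the start of the short form (chr2:33359088-33360134), was open in every library with no such order. Fold enrichment was 6.64 and 10.9 for D2 soft, 11.2 and 12.5 for D2 stiff, 8.58 and 12.7 for D4 soft and 10.6 and 11.9 for D4 stiff. Another promoter site (chr2:33500706-33501149) covered a coding exon next to an internal start and was among the strongest peaks of the lists. Fold enrichment was 5.10 and 14.6 for D2 soft, 13.3 and 17.3 for D2 stiff, 14.2 and 12.1 for D4 soft and 14.8 and 16.5 for D4 stiff. Its ranks lay in the top 5.96% of every list except D2 soft replicate 1, where it stood at 70.5% on 6 fragments. The limma difference over both days was 0.92 ± 0.418 (SE, adjusted p = 0.635). The last 2 LTBP1 promoter sites lay at internal starts of other transcripts. One was found in 5 libraries (fold enrichment 5.77 to 9.64) and one in 6, all 4 soft and 2 stiff (4.15 to 6.34).

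Sequences around the summits of the long-form promoter and of the coding exon are given because they carried the lowest unadjusted p of the promoter sites over both days. Capitals mark a GC box in the first, and a SMAD half-site and the AP-1 element in both orientations in the coding exon.
LTBP1 long-form promoter, chr2:33171466-33171616, plus strand: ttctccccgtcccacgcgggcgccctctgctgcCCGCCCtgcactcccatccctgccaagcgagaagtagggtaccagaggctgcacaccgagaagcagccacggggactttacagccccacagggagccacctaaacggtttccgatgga
LTBP1 coding exon, chr2:33500887-33501007, plus strand: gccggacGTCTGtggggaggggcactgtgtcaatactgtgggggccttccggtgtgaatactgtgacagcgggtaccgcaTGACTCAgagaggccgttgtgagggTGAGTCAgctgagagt

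Among the 20 distal LTBP1 sites, the best one open in every library lay 76600 bp into the gene (chr2:33248099-33249222) at 6.30% to 23.3% of the lists. The next intronic site (chr2:33294515-33295491) had lower rank scores on stiff, opposite to the promoter. Fold enrichment was 8.43 and 12.7 for D2 soft, 8.48 and 10.7 for D2 stiff, 11.4 and 10.6 for D4 soft and 10.2 and 11.9 for D4 stiff. These values overlapped, but the 4 soft rank scores were above the 4 stiff ones (-0.74 ± 0.337, SE, limma over both days, unadjusted p = 0.0358, adjusted p = 0.631). A small intronic site (chr2:33437279-33437522) was called in both D2 stiff libraries and in no other group, with fold enrichment of 5.95 and 5.52.

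**Figure D3:**
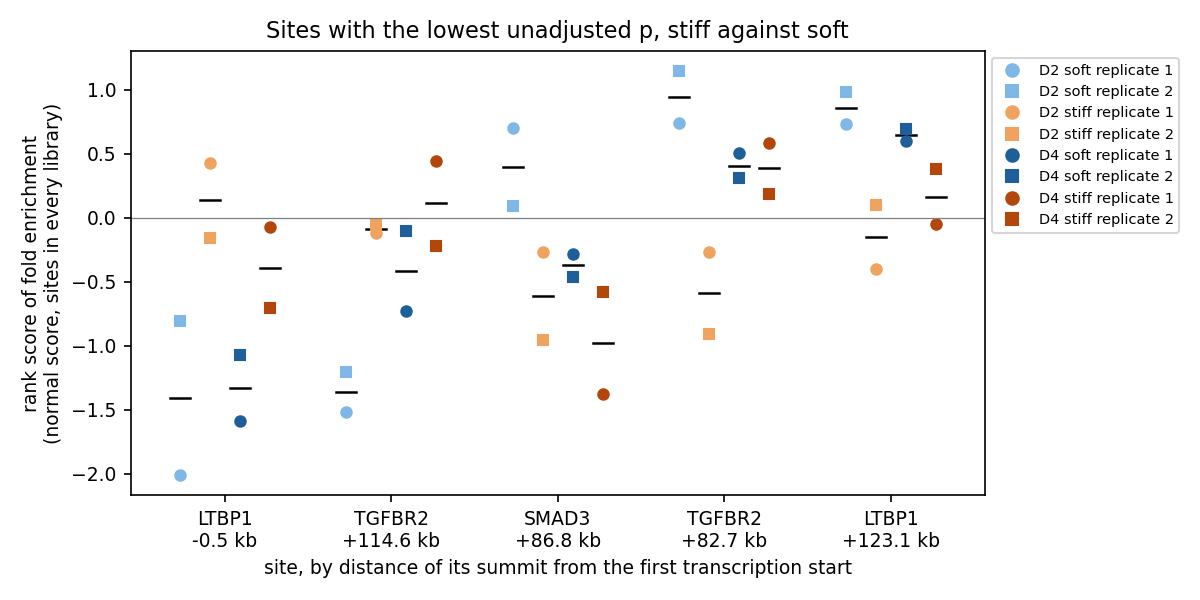
The 5 sites with the lowest unadjusted limma p for stiff against soft over both days (x axis, by gene and distance from the first start) are shown by the rank score of fold enrichment among the 24246 sites open in every library (y axis, normal score). Points are libraries (blue soft, orange stiff, darker shades day 4, circles replicate 1, squares replicate 2) and bars are the means of 2. At the LTBP1 promoter the 4 stiff scores run from -0.71 to 0.42 and the 4 soft scores from -2.01 to -0.81, and no other site of the 5 is higher on stiff in all libraries.

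LTBP2, a relative of LTBP1 that is found on elastic microfibrils, had a weak promoter. The site at its first start (chr14:75078864-75079415) had peaks in D2 soft replicate 2 (fold enrichment 4.66), D2 stiff replicate 1 (7.13) and both D4 stiff libraries (5.13 and 4.85), at 53.6% to 87.5% of the lists. It was thus called in 3 of 4 stiff and 1 of 4 soft libraries, and in both D4 stiff but neither D4 soft library. A second promoter site, in an intron near an internal start (chr14:74977299-74977909), was found in 6 libraries. D4 soft replicate 1 had the highest value there at 12.3, while the other 5 ranged from 5.86 to 7.91. The best distal site open in every library, intronic and 40262 bp from the start (chr14:75038141-75039317), stood in the top 28.7% of every list. It ranked above the second promoter site in every library except D4 soft replicate 1.

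SMAD3 had the most sites open in every library, 12 of its 23. Its 3 promoter sites lay in untranslated parts of exons at different starts. The one nearest the first start (chr15:67357375-67358188) was found in 7 libraries with fold enrichment of 5.36 for D2 soft replicate 2, 6.36 and 6.22 for D2 stiff, 6.19 and 3.85 for D4 soft and 5.98 and 6.13 for D4 stiff. The second, 61973 bp into the gene (chr15:67417405-67418532), was found in all 8, with 5.37 and 5.60 for D2 soft, 7.18 and 7.30 for D2 stiff, 5.03 and 2.91 for D4 soft and 6.25 and 7.27 for D4 stiff. All 4 stiff values lay above all 4 soft values in fold enrichment, whereas the rank scores of the 2 conditions overlapped. How many of all sites show this order of fold enrichment was not counted. The limma effect at the second site on day 4 was 1.34 ± 0.536 (SE, unadjusted p = 0.0181, adjusted p = 0.921). The last, 64361 bp into the gene (chr15:67419792-67420653), was found in 7 libraries at 5.58 to 9.65, with stiff and soft overlapping.

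The best distal SMAD3 site open in every library was intronic (chr15:67470304-67471517), at 3.59% to 32.0% of the lists and above all 3 promoter sites in rank in every library. Another intronic site (chr15:67442391-67443241) had lower rank scores on stiff over both days, by -0.81 ± 0.350 (SE, limma, unadjusted p = 0.0283, adjusted p = 0.614). Its fold enrichment was 8.32 and 9.96 for D2 soft, 8.84 and 7.54 for D2 stiff, 8.75 and 7.56 for D4 soft and 6.62 and 8.98 for D4 stiff, which overlapped. Another (chr15:67389333-67389637) was called in both D2 stiff libraries and in no other group (5.19 and 6.59). The sequence at the strongest of these is shown with 2 TEAD cores and a SMAD half-site in capitals.
SMAD3 intron, all libraries, chr15:67471082-67471232, plus strand: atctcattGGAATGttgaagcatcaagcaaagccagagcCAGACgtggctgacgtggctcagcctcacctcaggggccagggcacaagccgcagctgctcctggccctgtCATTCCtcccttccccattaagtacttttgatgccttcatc

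SMAD7, the inhibitory SMAD and a direct target of the pathway, had 5 promoter sites, and the one by its first start was not the main one. The site at -792 bp from the first start (chr18:46477943-46478356) was called in D2 stiff replicate 1 and both D4 stiff libraries, with fold enrichment of 3.06, 2.78 and 3.14, and in no soft library. The D2 stiff replicate 1 peak overlapped the D4 stiff peaks at one edge and did not cover the summit of the site. The site 1196 bp downstream (chr18:46475746-46476435) was called in D4 soft replicate 1 (2.59) and both D4 stiff libraries (3.17 and 3.05). These were at the bottom of their lists, from 98.0% on, although 12 to 30 fragments lay under each summit. The strongest promoter site was at a start of a non-coding transcript 8204 bp into the gene (chr18:46468786-46469570). There fold enrichment was 7.63 and 9.60 for D2 soft, 12.4 and 12.7 for D2 stiff, 8.27 and 9.49 for D4 soft and 10.01 and 11.35 for D4 stiff. All 4 stiff values exceeded all 4 soft values, but the rank scores of the 2 conditions overlapped. The share of all sites with this order of fold enrichment was not counted. The remaining promoter sites lay 20623 bp into the gene, in 8 libraries at 5.83 to 7.52, and 21989 bp into it, in 7 libraries at 5.53 to 8.15. The main site is shown with 3 SMAD half-sites in capitals, on the strand of the gene.
SMAD7 internal start, chr18:46469056-46469206, minus strand: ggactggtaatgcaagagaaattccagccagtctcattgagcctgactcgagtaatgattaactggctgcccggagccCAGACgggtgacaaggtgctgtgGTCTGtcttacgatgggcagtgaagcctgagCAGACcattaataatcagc

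The best distal SMAD7 site open in every library (chr18:46423032-46423829), downstream of the gene, stood in the top 27.7% of every list. A site upstream of the gene, at -6457 bp from the first start (chr18:46483634-46484122) was the only site of the 10 loci called in both D4 stiff libraries and in no library of another group, a pattern of 1.82% of all sites. Its fold enrichment was 2.89 in both, at 99.5% and 99.7% of the lists.

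The question behind the design was whether matrix stiffness changes which regions are open, on each day. Presence of a peak was compared first. On day 2, 13 of the 143 sites had a peak in both stiff and neither soft library, and 0 had the reverse, against 7.45% and 0.391% of all sites. The 13 were in LTBP1 (4), TGFB2, LTBP2 and SMAD3 (2 each) and TGFBR3, TGFBR2 and TGFB1 (1 each), and none was a promoter site of its gene. On day 4, 11 sites were in both stiff and neither soft library, against 6.72% of all sites, and 3 of them were promoter sites, those of LTBP2, SMAD7 and TGFBR2 described above. The shares of the 143 sites were 9.09% on day 2 and 7.69% on day 4, near those of all sites. With 2 libraries against 2 the exact permutation test cannot go below p = 0.33, so no p is given.

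These counts moved with single libraries. Without D2 soft replicate 1, 13 of 141 sites were in both D2 stiff libraries and not in the remaining D2 soft library, and 4 had the reverse, against 8.54% and 4.70% of all sites. The day 2 stiff count was 47 without D2 soft replicate 2 (29.7% of all sites) and 21 without D2 stiff replicate 2 (12.4%). The day 4 stiff count was 22 without D4 soft replicate 1 (15.6%) and 19 without D4 soft replicate 2 (11.0%). When every list was cut to the 29789 peaks of best p-value, the loci held 74 sites. Of these, 3 were in both D2 stiff and neither D2 soft library (4.06% of all sites) and 2 had the reverse (3.24%), while 4 were in both D4 stiff and neither D4 soft library (2.996%). The deposited lists were longer on stiff than on soft matrices on both days.

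Between days, 8 sites were called in both D4 stiff and neither D2 stiff library (5.35% of all sites) and 3 the reverse (1.41%). On soft matrices 4 appeared on day 4 alone (5.79%). Counted by group, 3 sites were found in both D2 stiff libraries and in no library of another group (0.611% of all sites): the LTBP1 and SMAD3 introns above and a site at -46555 bp from the LTBP2 start (chr14:75125532-75126006) with fold enrichment of 6.05 and 6.06. No site was confined in this way to D2 soft (0.0411%) or D4 soft (0.521%), and no site was in all soft and no stiff libraries (0.0172%). The 3 sequences of sites called in D2 stiff alone are given together. Capitals mark the AP-1 element in the SMAD3 and LTBP2 sites, and the LTBP1 window holds no match.
LTBP1, D2 stiff alone, chr2:33437321-33437441, plus strand: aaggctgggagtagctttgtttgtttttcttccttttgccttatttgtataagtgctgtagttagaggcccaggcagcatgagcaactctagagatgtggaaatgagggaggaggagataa
SMAD3, D2 stiff alone, chr15:67389320-67389440, plus strand: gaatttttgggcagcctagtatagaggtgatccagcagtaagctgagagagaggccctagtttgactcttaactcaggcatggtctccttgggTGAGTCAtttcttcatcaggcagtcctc
LTBP2, D2 stiff alone, chr14:75125576-75125696, minus strand: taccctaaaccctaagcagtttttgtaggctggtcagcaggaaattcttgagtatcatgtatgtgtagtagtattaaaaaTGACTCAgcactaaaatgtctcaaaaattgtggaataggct

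**Figure D4:**
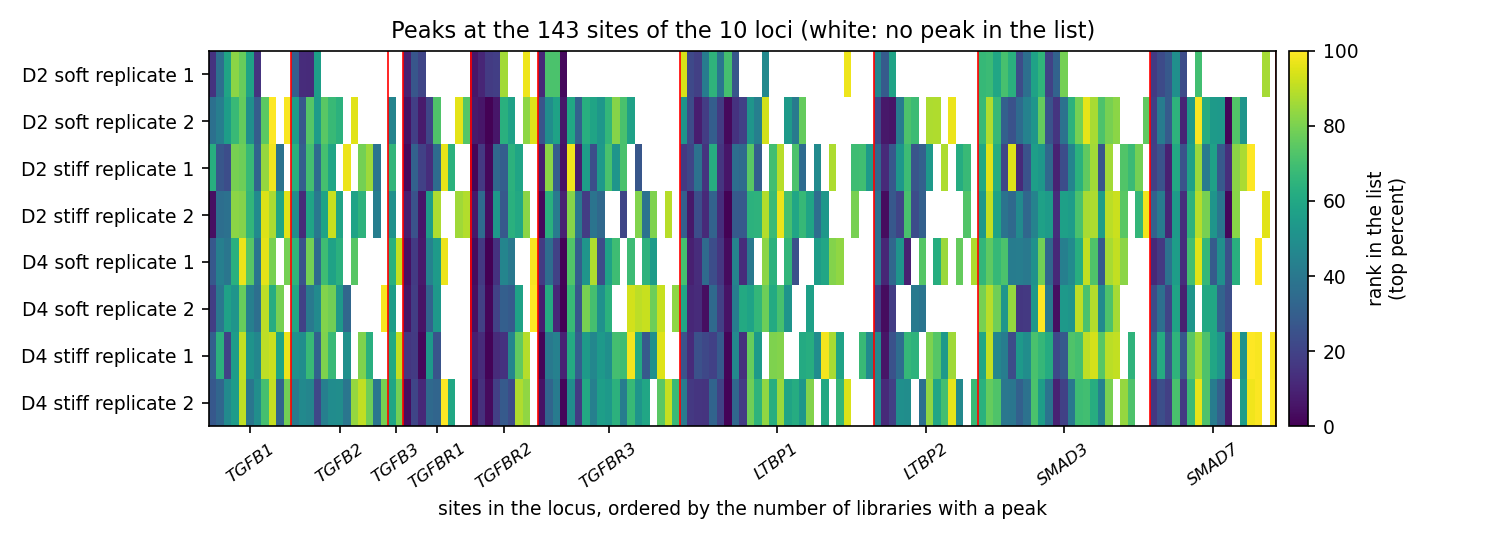
Each column is 1 of the 143 sites, grouped by gene (red lines) and ordered within a gene by the number of libraries with a peak, and each row is a library. Colour is the rank of the peak in its list (top percent, dark is strongest) and white is no peak. The D2 soft replicate 1 row has the most white, and 26 of the 27 sites found in exactly 7 libraries lacked a peak in that library alone.

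The number of peaks in a locus was compared next. The 10 loci together held 59 and 108 peaks for D2 soft, 122 and 122 for D2 stiff, 116 and 103 for D4 soft and 124 and 139 for D4 stiff. Per 1000 peaks of the list these were 1.98 and 1.94, 2.06 and 1.92, 1.83 and 1.83, and 1.88 and 1.91. Set against list length, the number of peaks in these loci varied little between libraries. In these bulk samples, fewer cells with an open site and less opening in each cell cannot be told apart.

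In 2 of the 10 loci all 4 stiff libraries had more peaks than all 4 soft libraries, against 5.08% of all protein-coding genes. LTBP1 had 11 and 15 peaks for D2 soft, 21 and 22 for D2 stiff, 20 and 17 for D4 soft and 22 and 21 for D4 stiff, a mean of 21.5 ± 0.577 (SD, n = 4) on stiff and 15.8 ± 3.77 (SD, n = 4) on soft. TGFB2 had 4 and 8, 11 and 11, 9 and 9, and 10 and 13 peaks in the same order, 11.2 ± 1.26 (SD, n = 4) against 7.50 ± 2.38 (SD, n = 4). In lists of equal length neither locus, and none of the other 8, separated the groups in either direction (0.566% of genes with stiff above and 0.358% with soft above). LTBP1 then had 11 and 12 peaks for D2 soft, 10 and 10 for D2 stiff, 9 and 8 for D4 soft and 8 and 7 for D4 stiff, a stiff minus soft difference of -1.25 in place of 5.75. No locus of the 10 had more peaks in all soft than in all stiff libraries (0% of genes).

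The other loci overlapped between conditions in the lists as deposited. SMAD3 had 13 to 24 peaks, TGFBR3 4 to 22, SMAD7 7 to 17, LTBP2 3 to 14, TGFB1 8 to 13, TGFBR1 3 to 9, TGFBR2 6 to 9 and TGFB3 0 to 2. The lowest count of each of these 8 loci was in D2 soft replicate 1.

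**Figure D5:**
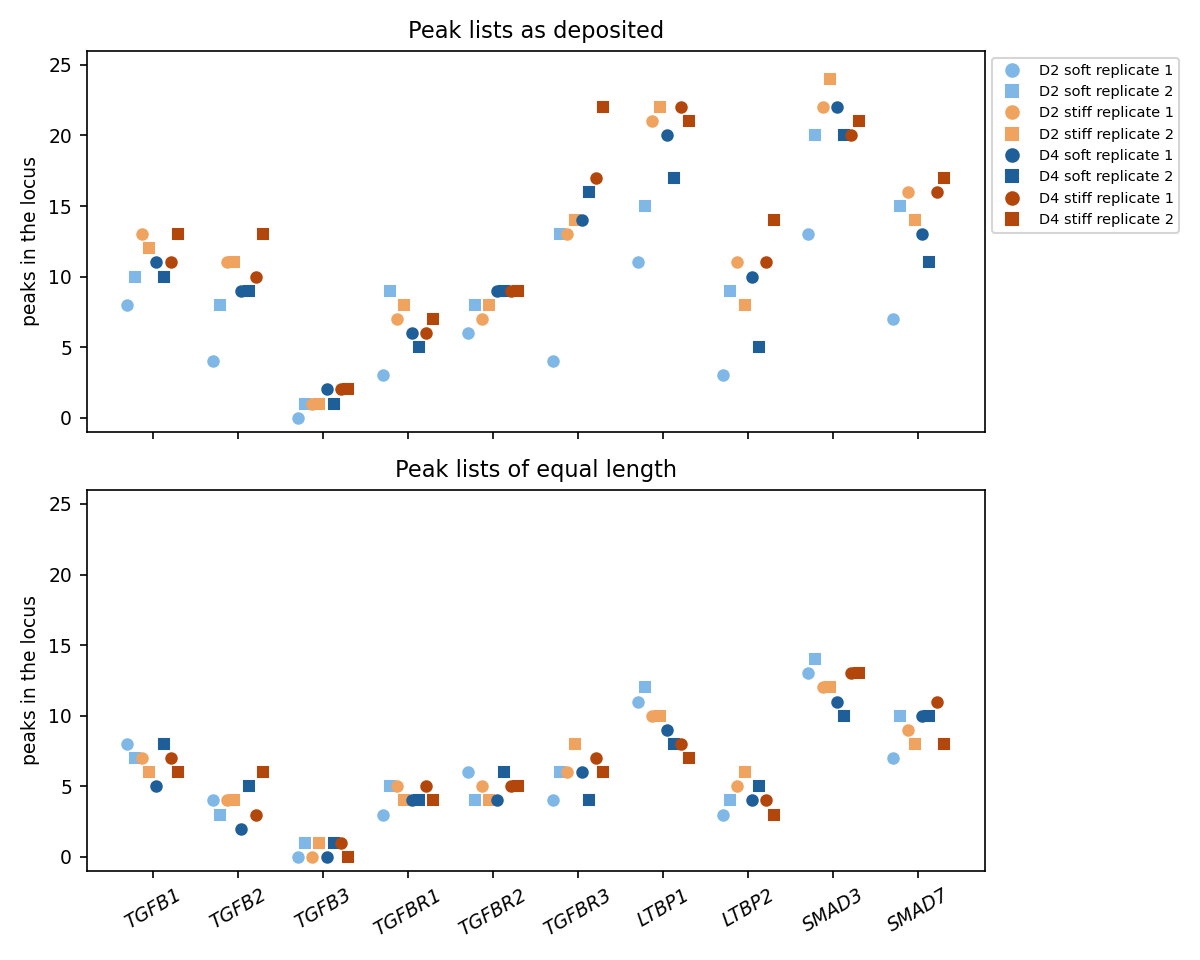
The number of peaks in each locus (y axis) is plotted for the 10 genes (x axis) in each library, from the lists as deposited (upper panel) and cut to equal length (lower panel). Blue is soft, orange is stiff, darker shades are day 4, circles are replicate 1 and squares replicate 2. In the upper panel the stiff points of LTBP1 (21 to 22) are above its soft points (11 to 20), and in the lower panel they are not.

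The strength of the peaks at the 51 sites open in all libraries was compared with limma, on rank scores and with Benjamini-Hochberg adjustment over all 24246 such sites. None of the 51 passed an adjusted p of 0.05 for stiff against soft on day 2, on day 4 or over both days, for day 4 against day 2, or for the interaction. With 2 libraries a group, a site that was not called is not shown to be unchanged. Over all sites 0.00412% were called higher and 0% lower on stiff on day 2, 0.00825% and 0% on day 4, and 0.00412% in each direction over both days. Neither the comparison of days nor the interaction called any site (0% in each direction). The lowest adjusted p of the 51 sites was 0.492 on day 2, 0.921 on day 4, 0.410 over both days, 0.662 between days and 0.920 for the interaction.

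At an unadjusted p under 0.05, 3 of the 51 sites were higher and 4 lower on stiff on day 2, against 4.28% and 3.38% of all sites (7.65% in either direction). On day 4 there was 1 higher and 2 were lower, against 3.21% and 2.13% (5.35%). Over both days 4 were higher and 3 lower, against 4.40% and 3.32% (7.72%). Between days 0 were higher and 4 lower on day 4, against 4.05% and 2.86% (6.91%), and the interaction was positive at 2 and negative at 1, against 2.55% and 2.71% (5.27%). The median stiff minus soft rank score over both days was -0.19 at the 51 sites and -0.02 at all sites, and 14 of the 51 had a positive difference (27.5%, against 48.5% of all sites). On day 2 the median was -0.22, with 22 of the 51 positive (43.1%, against 48.5%). On day 4 it was -0.17, with 20 positive (39.2%, against 48.4%). No test of the 51 sites as a set was run.

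Other genes of the pathway were described by their promoters. Of 40 genes, among them receptors of the activin and BMP branches, other SMADs, the co-repressors SKI and SKIL, integrins that release latent TGF-beta and targets such as CCN2, 26 had a promoter peak in every library and 13 in some. DCN, which encodes the TGF-beta binding proteoglycan decorin, had one in none. NRROS, whose product tethers latent TGF-beta at the cell surface, had one in all 4 stiff and in no soft library, the pattern of 0.199% of genes, and was singled out after its values were seen. In 24 of these genes 28 promoter sites were open in every library, and limma called 0 of them higher and 0 lower on stiff over both days. At an unadjusted p under 0.05 there were 0 higher and 1 lower. Their median stiff minus soft rank score was -0.08, against -0.02 at all sites.

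Short motifs were counted in the 201 bases around each summit on both strands, a wider window than the sequences printed. The AP-1 element TGACTCA was found in 50 of the 143 sites (34.97%, against 30.2% of all sites), with 42 of these at distal sites and 5 at promoter sites. The TEAD core GGAATG was found in 31 (21.7%, against 19.1%), the SMAD half-site GTCTG in 55 (38.5%, against 37.4%) and the GC box GGGCGG in 24 (16.8%, against 16.0%). By locus, the AP-1 element occurred in 12 of 26 LTBP1 sites and 10 of 23 SMAD3 sites but in 0 of the 2 TGFB3 sites, and the GC box in 8 of 11 TGFB1 sites but in 0 of 13 TGFB2 sites. At starts of other genes lay 5 of the TGFB1 sites, each with a GC box, and 1 of the TGFB2 sites, without it. Of the 23 sites called in both stiff and neither soft library on day 2 or day 4, 8 held the AP-1 element, 7 the TEAD core, 9 the SMAD half-site and 3 the GC box. In the same order, the shares of all sites were 30.2%, 19.1%, 37.4% and 16.0%. Shares among all sites of the genome with this pattern were not counted. A match is a description of these letters and does not show that a factor was bound.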

How the data were processed

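ATAC-seq was made from 8 LX-2 libraries in 4 groups of 2, as the sample labels give them. The authors trimmed reads with Trim Galore, mapped them to hg19 with Bowtie2 (2.4.1 per the labels) and called peaks per library with MACS2 at a q-value up to 0.05; replicates were not pooled. The MACS2 options and the treatment of Tn5 offsets are not given in the sources used here. Each deposited list gives fold enrichment, a ratio of the summit pileup to local background. It also gives the −log10 p-value and −log10 q-value that the authors' caller assigned. The score deposited by the authors was not analysed. Another deposited column, the summit offset, placed each summit.

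Members and gene lists were chosen with earlier results of these data known, and the printed sequence windows after their values were seen. Coordinates are 1-based on hg19 (GRCh37). Annotation was GENCODE release 44 on GRCh37, with promoters within 1 kb of any of its transcription starts, and sequence came from the GRCh37 genome. PECAM1 was not matched to a protein-coding gene. Peaks overlapping by 1 bp were merged, and sites needed 2 libraries. Sites were assigned by position and peaks by summit. Named sites were every promoter site, the best-ranked distal site of each gene among those in every library, distal sites confined to 1 group or to all stiff or all soft libraries, and the 5 lowest unadjusted p over both days. Sites named after their values were seen were 2 that cover the start of some other gene (in D4 soft but not D4 stiff, and in D2 stiff alone), the TGFB3 site at IFT43, and the TGFBR3 site with the lowest p for the interaction.

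limma (3.58.1, R 4.3.3) was fitted to normal scores of the within-list rank of fold enrichment, with 4 group means and Benjamini-Hochberg adjustment, after testing on simulated data. The lists hold no counts, so no count model was fitted. Pileup under a summit was recovered from fold enrichment and p under the MACS2 model (for at least 99.9964% of the peaks of each list). Depth was estimated as the commonest background over the shortest peak, which rests on an assumption about the caller. A missing peak does not show closed chromatin. The replicate numbers did not pair libraries: deviations from group means correlated at -0.041 to 0.084 over the pairs of groups. In 5 of the lists the peak names carry another replicate number than the label, and the labels were followed. Alternatives were lists of equal length, a q-value of at most 0.01, other ranks, flanks and merging rules, a replicate block, and each library left out. Shares of all sites under these settings, and of sites and promoters in the other 7 libraries, were added after the data were seen.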

Additional observations from a re-analysis of the deposited data

Results flagged for a closer look

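One value stood far from the others of its condition. At the SMAD3 promoter site 61973 bp into the gene, fold enrichment in the 4 stiff libraries was 7.18, 7.30, 6.25 and 7.27, and the 6.25 of D4 stiff replicate 1 was set apart from the nearest value, 7.18, by 0.880 of the range, past Dixon's critical value for 4 samples. Of 40 such groups of 4 examined this was the only 1, and chance alone flags about 1 in 20. Fold enrichment is not on a scale shared between lists, and the cause was not tested.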

How the results depend on the processing

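The counts of sites by presence moved with list length, with the replicate rule and with single libraries. With lists of equal length the D2 stiff-only, D2 soft-only and D4 stiff-only counts were 3, 2 and 4, and the count in all stiff and no soft libraries was 0. Asking for a peak in at least 1 replicate gave 29, 5 and 17, with 9 in all stiff and no soft and 1 in all soft and no stiff. A q-value of at most 0.01 took the D4 soft-only count from 1 to 0. Leaving out each library in turn gave ranges of 12 to 47 for D2 stiff-only (47 without D2 soft replicate 2, 21 without D2 stiff replicate 2), 0 to 4 for D2 soft-only (4 without D2 soft replicate 1), 11 to 22 for D4 stiff-only (22 without D4 soft replicate 1, 19 without D4 soft replicate 2), 1 to 5 for D4 soft-only (5 without D4 stiff replicate 2, 3 without D4 stiff replicate 1), 1 to 4 for all stiff and no soft (4 without D2 stiff replicate 2 or D4 soft replicate 2), and 0 to 1 for all soft and no stiff. In loci, equal lists gave 0 with all stiff above all soft, a 10 kb flank gave 1 (SMAD7), and leaving out libraries gave 2 to 4 (4 without D2 stiff replicate 2, which added LTBP2 and SMAD7). The LTBP1 locus difference turned to -1.25 with equal lists. Equal lists left a promoter peak for TGFB1 in 0, TGFB3 in 4 and LTBP2 in 1 library.

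limma called 0 to 1 of the sites on day 2 when a library was left out. The 1 was the LTBP1 coding exon without D2 soft replicate 2 (adjusted p = 0.0274), in a fit that called 296 sites and rests on the shallow D2 soft replicate 1 as the lone D2 soft library, assumed to vary like the others. The replicate block gave 0 calls in all 5 comparisons, as did a block by the numbers inside the peak names, chosen after the data were seen. Fits within 1 day have no value for the comparisons that need both days. The other 131 values for whole comparisons stayed within the limits for an unchanged result. Intervals from counts were not computed, since the lists hold none.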
